A study of Homo sapiens with 12 samples.

Results

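The mRNAs described here are 46 genes of the interferon response and of antigen presentation by class I molecules, measured in HCT116 cells with and without the miR-34 microRNAs. They were taken by symbol from a list, with earlier results of these data known, and make up 46 of the 60580 genes counted in each library. Of these, 44 had at least 20 counts in at least 1 library and were tested. *OAS2* (at most 9 counts in a library) and *IFI44L* (at most 10) did not reach this minimum. Of the 44, *SAMD9L* and *XAF1* reached it only in *WT* cells under 5-FU, the group in which they were highest, and are therefore given as counts.

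HCT116 cells come from a human colorectal tumor, are an established line and have functional p53. RNA of 4 groups was sequenced: wild-type (*WT*) cells and their *miR-34a/b/c-KO* counterparts (called KO below), each kept for 48 h as a control (DMSO) or with 5-FU, a pyrimidine analog that blocks thymidylate synthesis. In KO cells the miR-34a locus and the joint miR-34b and miR-34c locus had been deleted in part with CRISPR-Cas9. KO cells were single cell derived clones, and *WT* cells were clones that had received the vector without guide RNAs. Which clones gave the libraries is not stated, so that the genotype and the clone cannot be told apart, and p-values measure only the spread between the libraries of a group. The file labelled *WT* 5-FU replicate 1 differed in 0 of 60580 genes from that of *WT* DMSO replicate 3, carries the column name of that library, and was left out. Thus 3 libraries represented each group except *WT* cells under 5-FU, which had 2 (replicates 2 and 3). Total counts ranged from 22831415 to 39064210 per library. Levels are given as CPM, the counts of an mRNA per 1000000 counts of its library, scaled to the upper quartile of each library. Differences are on the log2 scale, each with a standard error (SE) and a false discovery rate (FDR) over all genes tested, from edgeR's quasi-likelihood test.

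The colon epithelial markers were present (7 of 7 tested), together at 5488 to 5838 CPM under DMSO, 11357 to 12443 CPM in *WT* cells under 5-FU and 8738 to 9204 CPM in KO cells under 5-FU. Of 10 immune cell markers, 4 stayed at or under 3 counts in every library, among them *PTPRC* and *CD3E*. The 10 together were at 21.3 to 25.0 CPM in *WT* and 25.3 to 26.1 CPM in KO cells under DMSO, without overlap. Under 5-FU they were at 40.2 to 43.4 CPM in *WT* and 40.0 to 41.1 CPM in KO cells, which overlapped. Most of these counts came from *CD68* (15.1 to 36.2 CPM). The 6 fibroblast and endothelial markers, of which 2 were tested and *COL1A1* gave most counts, were together at 23.3 to 28.2 CPM in *WT* and 47.3 to 51.6 CPM in KO cells under DMSO, and at 55.4 to 66.3 and 71.5 to 72.2 CPM under 5-FU. The part of these markers in the results below was not tested. The deletion leaves the host transcript of miR-34a, *MIR34AHG*, which was at 4.69, 4.45 and 5.35 CPM in *WT* and 22.5, 21.9 and 22.2 in KO cells under DMSO, and at 16.96 and 15.4 in *WT* and 62.7, 65.8 and 65.2 in KO cells under 5-FU. Its KO libraries lay above the *WT* libraries of the same treatment, and counts over the whole host transcript do not check the deletion. *CDKN1A*, the p53-induced inhibitor p21, rose after 5-FU in both genotypes, by 3.64 in *WT* and 2.40 in KO cells on the log2 scale. *MDM2*, a further p53 target, rose by 2.99 and 2.08. Summed, these mRNAs were at 302 to 311 CPM in *WT* and 650 to 676 CPM in KO cells under DMSO. Under 5-FU the sum was 3182 to 3207 CPM in *WT* and 3246 to 3325 CPM in KO cells. KO cells thus started higher and reached a similar level. In bulk RNA, fewer cells with an mRNA and less of it per cell cannot be told apart.

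Interferons are secreted proteins that bind receptors on the cell surface. The kinases JAK1 and TYK2 then activate STAT proteins, among them STAT2, which joins IRF9 in ISGF3, a factor that binds the interferon-stimulated response element (ISRE) in promoters and switches on interferon-stimulated genes (ISGs). Many ISG products sense or destroy foreign RNA, and others block viruses at membranes. The class I pathway cuts proteins in the immunoproteasome, carries the peptides into the endoplasmic reticulum through TAP and shows them on HLA molecules with beta-2-microglobulin. Class I molecules let T cells recognize tumor cells, which is why both pathways are followed in colorectal cancer.

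Promoter sequences were taken from a RefSeq table (GRCh38.p14), in which 37 of the 46 members were matched. The letters GAAANNGAAA, a core of the ISRE, were searched on both strands from 250 bases before to 50 bases after each start site. They occurred in 25 of the 37 (67.6%), against 438 of 11178 genes tested here (3.92%) and 1195 of all 27305 genes in that table (4.38%). The letters TTCNNNGAA, a core of the gamma-activated sequence, occurred in 11 of the 37 (29.7%), against 8.28% of the genes tested. Shown are the 160 bases before the start site of 5 members whose 5-FU response was lower in KO cells (*IFIT1*, *BST2*, *SAMD9*, *IFI6* and *IFI27*), of *OAS1*, which differed most between the genotypes among the 42 members with enough counts in several groups, and of *ISG15* and *B2M*, which were not called between them. Matches to GAAANNGAAA on either strand are in capitals.
IFIT1, chr10:89392463-89392622, plus strand: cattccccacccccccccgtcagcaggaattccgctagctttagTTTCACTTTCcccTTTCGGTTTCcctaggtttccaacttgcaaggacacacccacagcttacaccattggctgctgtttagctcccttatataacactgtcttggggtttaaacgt
BST2, chr19:17405631-17405790, minus strand: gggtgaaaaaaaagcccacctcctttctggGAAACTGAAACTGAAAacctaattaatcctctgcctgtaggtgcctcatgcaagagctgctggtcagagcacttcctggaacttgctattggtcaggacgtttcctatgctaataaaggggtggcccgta
SAMD9, chr7:93117980-93118139, minus strand: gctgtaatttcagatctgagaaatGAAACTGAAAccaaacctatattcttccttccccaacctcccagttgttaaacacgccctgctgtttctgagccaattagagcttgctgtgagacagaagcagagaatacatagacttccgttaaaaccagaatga
IFI6, chr1:27672193-27672352, minus strand: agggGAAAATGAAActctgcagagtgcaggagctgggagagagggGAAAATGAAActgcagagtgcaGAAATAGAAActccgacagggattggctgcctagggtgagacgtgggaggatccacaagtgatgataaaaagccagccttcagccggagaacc
IFI27, chr14:94110576-94110735, plus strand: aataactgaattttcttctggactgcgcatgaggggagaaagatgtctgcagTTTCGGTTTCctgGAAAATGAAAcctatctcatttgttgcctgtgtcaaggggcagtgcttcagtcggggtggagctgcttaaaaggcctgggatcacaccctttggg
OAS1, chr12:112906802-112906961, plus strand: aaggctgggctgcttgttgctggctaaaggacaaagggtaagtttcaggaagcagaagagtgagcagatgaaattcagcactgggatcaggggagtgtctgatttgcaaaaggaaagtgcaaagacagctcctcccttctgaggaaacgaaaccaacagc
ISG15, chr1:1013337-1013496, plus strand: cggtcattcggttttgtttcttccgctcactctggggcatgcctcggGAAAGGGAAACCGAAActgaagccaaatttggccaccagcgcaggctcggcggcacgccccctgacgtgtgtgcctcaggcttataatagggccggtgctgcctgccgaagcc
B2M, chr15:44711357-44711516, plus strand: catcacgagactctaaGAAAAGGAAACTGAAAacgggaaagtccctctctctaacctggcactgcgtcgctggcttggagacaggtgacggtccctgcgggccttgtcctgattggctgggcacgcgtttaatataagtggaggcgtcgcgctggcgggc

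*IFI6* had 3 matches in the bases shown, *SAMD9* had 1 and the other matching promoters had 2. The bases shown of *OAS1* hold no match to these letters. They do hold GAAACGAAA, with 1 base instead of 2 between the repeats, which the search did not count. A window without a match may thus still hold an ISRE. The promoters shown are a selection. Of the members with a lower 5-FU response in KO cells that are not shown, *ISG20* and *IFITM1* have the match and *IFI35* does not. Among the 37 members the match was present in 12 of the 19 that were lower in KO than in *WT* cells under 5-FU (63.2%) and in 13 of the 18 that were not (72.2%). The 19 include *SAMD9L* and *XAF1*, which lack the match and reached the minimum count only in *WT* cells under 5-FU. The 18 include *IFI44L*, which has the match and was not tested. These shares are therefore not read as a difference. The match is a description of these windows and not a measured binding site. Promoters of *DHX58*, *IRF7*, *IFIT2*, *IFITM2*, *OAS2*, *OASL*, *USP18*, *HLA-E* and *NLRC5* are not shown.

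Of the microRNAs missing from KO cells, miR-34a was also compared with the members. Mature miR-34a-5p (chr1:9151735-9151756, minus strand, GRCh38.p14), with its seed (bases 2 to 8) in capitals, reads
miR-34a-5p: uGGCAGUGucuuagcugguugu
A 3′ UTR that holds the matching letters CACTGCC was found for 8 of the 44 members tested (18.2%) and for 2305 of 13111 genes tested (17.6%). The 8 were *IRF1*, *IFIT1*, *OAS3*, *TRIM21*, *IFI35*, *HERC6*, *PARP14* and *NLRC5*. The site of miR-34b-5p, whose bases 2 to 8 are AGGCAGU, was not searched, and miR-34c was not compared separately.

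Many ISGs were lower in KO than in *WT* cells. An mRNA was called higher or lower at FDR < 0.05 and an absolute fold change over 1.5, from edgeR fitted to all 16123 genes tested. Under DMSO 12 of the 44 members were lower and 1 (*ISG20*) was higher in KO cells, where 4.97% of all genes tested were lower and 9.1% higher. Under 5-FU 22 members were lower and 0 higher in KO cells, where 10.6% of all genes were lower and 7.58% higher. Of members higher in KO cells under 5-FU, edgeR gave 6 an unadjusted p under 0.05, all below the minimum fold change, and DESeq2 called 0. Leaving aside *SAMD9L* and *XAF1*, 20 of 42 were lower under 5-FU. The median difference of the 44 (KO minus *WT*, log2) was −0.33 under DMSO and −0.71 under 5-FU, where the median over all genes tested was 0.03 and −0.05. The medians of the 44 include *SAMD9L* and *XAF1*, and medians without them were not made. All of these calls lay outside the class I pathway, in which edgeR and DESeq2 called 0 of 9 members between the genotypes, while 4 under DMSO and 6 under 5-FU had an unadjusted p under 0.05.

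5-FU raised a part of the ISGs in *WT* cells. Of the 44 members, 15 rose and 1 (*IFITM1*) fell in *WT* cells, where 18.5% of all genes tested rose and 9.38% fell. Leaving aside *SAMD9L* and *XAF1*, 14 of 42 rose. In KO cells 8 members rose and 2 (*IFITM1* and *BST2*) fell, where 13.3% of all genes rose and 12% fell. The share of members that rose in KO cells (18.2%) was thus near that of all genes. The median response of the 44 members, *SAMD9L* and *XAF1* included, was 0.45 in *WT* and 0.20 in KO cells (log2), beside 0.03 and −0.06 over all genes. The difference between the responses was tested as an interaction. It was called lower in KO cells for 9 members, *IFIT1*, *IFITM1*, *OAS1*, *BST2*, *ISG20*, *SAMD9*, *IFI6*, *IFI27* and *IFI35*, and higher for 0, where it was lower for 6.66% and higher for 3.42% of all genes. Of members with an interaction above 0, edgeR gave 6 an unadjusted p under 0.05, and DESeq2 called 1, *OAS3*. These comparisons share groups, so that a high or low library of *WT* cells under 5-FU enters 3 of the 5.

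**Figure D1:**
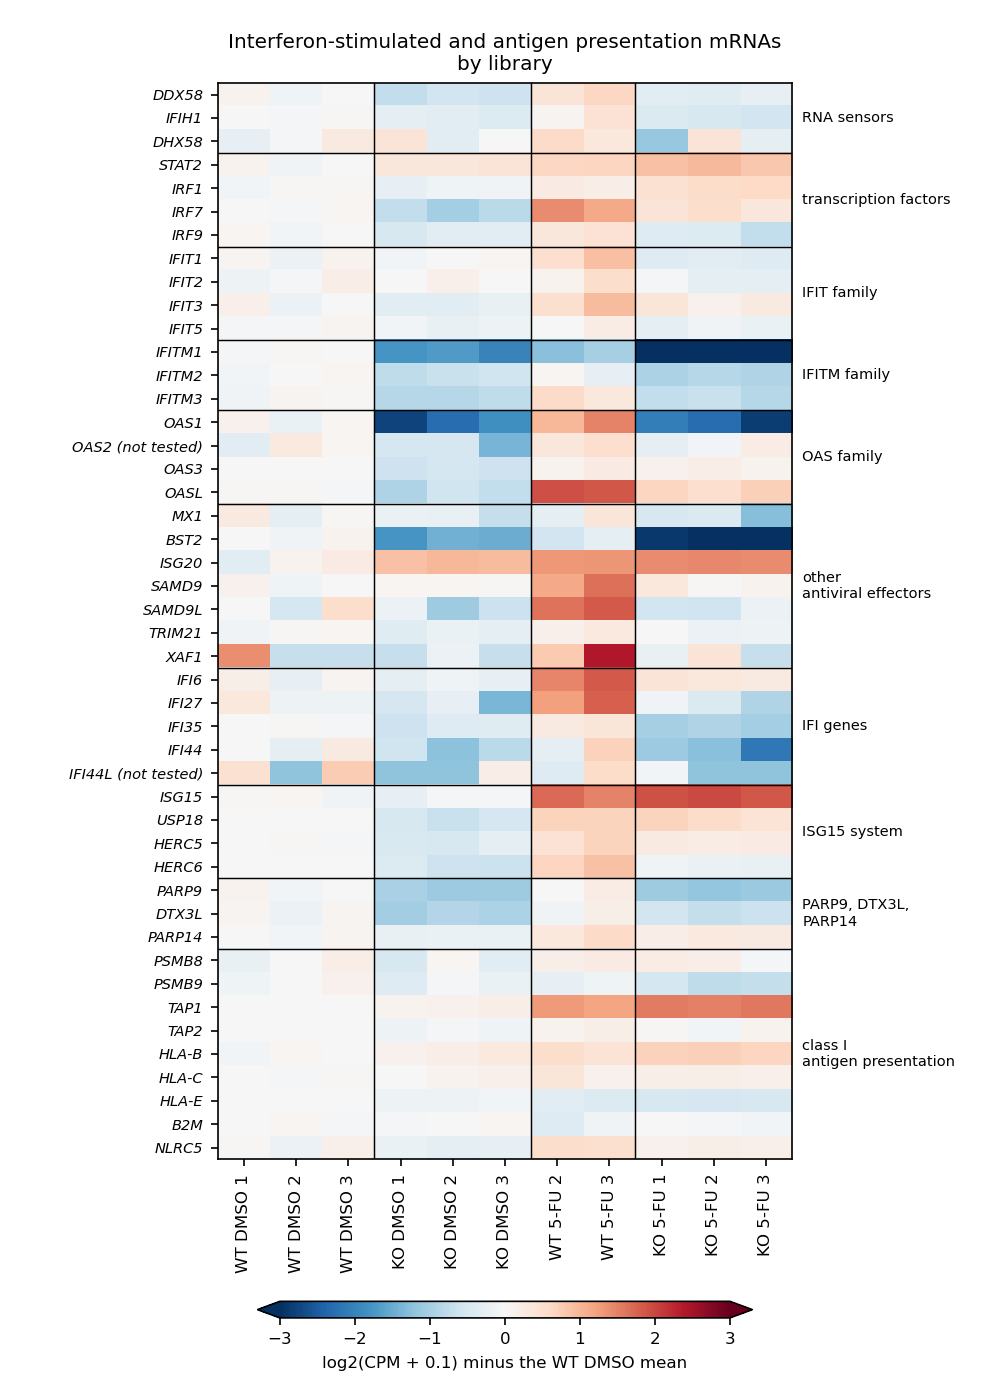
Heat map of log2(CPM + 0.1) minus the mean of *WT* cells under DMSO for the 46 members (lines, grouped by role) in the 11 libraries (columns). Blue lines of *IFITM1*, *OAS1* and *BST2* run through both KO groups, and the median of the 35 tested ISGs outside class I was 0.44 and 0.63 in the 2 *WT* 5-FU libraries and −0.25 to −0.20 in the 3 KO 5-FU libraries. The 35 include *SAMD9L* and *XAF1*.

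The libraries of each group lay together. The 35 tested ISGs outside class I include *SAMD9L* and *XAF1*. Over these 35, the median of log2(CPM + 0.1) relative to the *WT* DMSO mean was −0.50 to −0.34 in the 3 KO DMSO libraries. It was 0.44 and 0.63 in the 2 *WT* 5-FU libraries, of which replicate 3 was the higher, and −0.25 to −0.20 in the 3 KO 5-FU libraries. The 9 class I genes had medians of −0.15 to −0.02 in KO DMSO, 0.17 and 0.18 in *WT* 5-FU and 0.11 to 0.17 in KO 5-FU libraries.

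Levels between genes were compared as CPM per kb of the canonical transcript. In *WT* cells under DMSO they ranged from 0.0165 for *SAMD9L* to 554 for *IFITM3*. *IFITM3* was followed by *B2M* (455), *HLA-C* (270.2), *ISG15* (114), *HLA-B* (109) and *IFITM2* (107 CPM per kb), so that the most abundant members were small membrane or class I proteins and ISG15. RNA sensors were at 0.388 to 5.92 CPM per kb. *OAS2*, *XAF1*, *IFI44L* and *SAMD9L* were below 0.1 CPM per kb in *WT* cells under DMSO. Several members lie side by side in the genome (GRCh38, GENCODE release 44): *IFIT1*, *IFIT2*, *IFIT3* and *IFIT5* on chromosome 10, the 3 *IFITM* genes on chromosome 11, *OAS1*, *OAS2* and *OAS3* on chromosome 12, *PARP9*, *DTX3L* and *PARP14* on chromosome 3, *HERC5* and *HERC6* on chromosome 4, and *PSMB8*, *PSMB9*, *TAP1* and *TAP2* on chromosome 6.

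Of the RNA sensors, *DDX58* and *IFIH1* were lower in KO cells under 5-FU and *DHX58* was not called. *DDX58* (chromosome 9, 32455302 to 32526208, minus strand) encodes RIG-I, which recognizes the ends of viral RNA. It was at 29.6, 25.2 and 27.3 CPM in *WT* and 16.4, 18.3 and 17.7 in KO cells under DMSO, and at 35.5 and 42.4 in *WT* and 21.7, 21.2 and 22.9 in KO cells under 5-FU. Every KO library lay below every *WT* library of the same treatment, with a difference (KO minus *WT*) of −0.65 (SE 0.09, FDR 1.35e-05) under DMSO and −0.82 (SE 0.09, FDR 1.76e-06) under 5-FU. The response of *DDX58* to 5-FU was 0.50 in *WT* and 0.33 in KO cells, under the minimum fold change in both, and without *WT* 5-FU replicate 2 it reached 0.63 (FDR 2.8e-05) in *WT* cells. In the annotation 96.5% of the 150-base windows of its transcript are shared with an overlapping gene, so that its counts could have been split. *IFIH1* encodes MDA5, the sensor of long double-stranded RNA, and ranged from 14.02 to 28.3 CPM. Its difference was −0.34 (SE 0.09, FDR 0.00432) under DMSO and −0.76 (SE 0.10, FDR 7.59e-06) under 5-FU, and the latter fell short of the minimum fold change without *WT* 5-FU replicate 3, at −0.58 (FDR 4.71e-05). *DHX58*, which regulates both sensors, was expressed at 0.396 to 1.53 CPM, with a difference of −0.72 (SE 0.38, FDR 0.13) under 5-FU. Without KO 5-FU replicate 2 it was −1.24 (FDR 0.0201).

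Among the transcription factors *IRF7* showed the clearest pattern. *IRF7* (chromosome 11, 612553 to 615983, minus strand), which drives interferon genes, was at 14.5, 13.97 and 15.02 CPM in *WT* and 8.64, 7.11 and 8.29 in KO cells under DMSO, and at 38.8 and 32.1 in *WT* and 18.9, 20.9 and 18.4 in KO cells under 5-FU. The 4 groups did not overlap. *IRF7* was lower in KO cells to a similar extent under both treatments, −0.86 (SE 0.10, FDR 3.79e-06) under DMSO and −0.87 (SE 0.09, FDR 1.69e-06) under 5-FU, and it rose after 5-FU by 1.29 in *WT* and 1.27 in KO cells (interaction −0.02, SE 0.14). *IRF1*, a factor of both interferon and p53 responses, was at 25.7, 27.7 and 27.98 CPM in *WT* and 22.8, 24.9 and 25.2 in KO cells under DMSO, and at 32.3 and 31.1 in *WT* and 37.5, 39.9 and 40.8 in KO cells under 5-FU. It rose in KO cells, by 0.70 (SE 0.07, FDR 2.03e-07), and its response in *WT* cells was 0.22 (SE 0.07, FDR 0.0159).

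*STAT2* and *IRF9*, both parts of ISGF3, differed in direction. *STAT2* rose after 5-FU in *WT* cells by 0.64 (SE 0.06, FDR 3.16e-07) and its response in KO cells was 0.53 (SE 0.06, FDR 7.51e-07), just under the minimum fold change. All KO libraries lay above the *WT* libraries of the same treatment, with a difference of 0.35 under DMSO and 0.24 under 5-FU. *IRF9*, in contrast, was lower in KO cells under 5-FU, with a difference of −0.90 (SE 0.10, FDR 1.39e-06), and its difference under DMSO was −0.37 (SE 0.09, FDR 0.00267). *IRF9* was expressed at 26.7 and 20.6 CPM (means of *WT* and KO cells) under DMSO and 35.01 and 18.7 CPM under 5-FU. The annotation shares 92.3% of its windows with overlapping genes. Without KO 5-FU replicate 1 the interaction of *IRF9* reached −0.59 (FDR 0.00851).

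The IFIT proteins bind foreign RNA and keep it from being translated. *IFIT1* (chromosome 10, 89392546 to 89406487, plus strand), whose promoter is printed above, was at 19.7, 16.7 and 20.1 CPM in *WT* and 17.8, 19.1 and 19.4 in KO cells under DMSO, and at 26.6 and 35.2 in *WT* and 14.3, 15.04 and 14.4 in KO cells under 5-FU. The genotypes overlapped under DMSO, −0.01 (SE 0.10, FDR 0.955), whereas under 5-FU both *WT* libraries lay above and all 3 KO libraries below the range of the untreated cells. The difference under 5-FU was −1.08 (SE 0.11, FDR 7.23e-07), and the interaction −1.07 (SE 0.15, FDR 8.65e-05). *IFIT1* rose in *WT* cells by 0.70 (SE 0.11, FDR 2.82e-05) and its response in KO cells was −0.37 (SE 0.10, FDR 0.00578). *IFIT3* rose in *WT* cells by 0.73 (SE 0.13, FDR 0.000186) and its response was 0.56 (SE 0.13, FDR 0.00141) in KO cells. Without *WT* 5-FU replicate 3 the *WT* responses of *IFIT1* and *IFIT3* were 0.49 (FDR 0.000429) and 0.48 (FDR 0.00522), under the minimum fold change. For *IFIT3* the response in KO cells passed the threshold without KO DMSO replicate 3, at 0.60 (FDR 0.00376), and without KO 5-FU replicate 2, at 0.63 (FDR 0.00151). *IFIT2* and *IFIT5* were not called in any comparison, with differences of −0.53 (SE 0.13, FDR 0.00381) and −0.33 (SE 0.08, FDR 0.00348) under 5-FU. That of *IFIT2* was −0.74 (FDR 0.000474) without *WT* 5-FU replicate 2 and −0.62 (FDR 0.00331) without KO 5-FU replicate 1, and that of *IFIT3* −0.70 (FDR 0.000414) without *WT* 5-FU replicate 2. The interaction of *IFIT2*, −0.57 (SE 0.18, FDR 0.0321), missed the minimum fold change and passed it when 1 of 5 libraries was left out, with values between −0.77 (FDR 0.00449) without *WT* 5-FU replicate 2 and −0.59 (FDR 0.0441) without KO DMSO replicate 1. The other 3 were *WT* DMSO replicate 3, KO DMSO replicate 3 and KO 5-FU replicate 1.

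All 3 IFITM genes, whose products stop viruses from fusing with cell membranes, were lower in KO cells under both treatments. Among all genes tested 4.97% were lower under DMSO and 10.6% under 5-FU. *IFITM1* (chromosome 11, 310041 to 315272, plus strand) was at 17.02, 17.7 and 17.5 CPM in *WT* and 5.05, 5.28 and 4.24 in KO cells under DMSO, and at 7.22 and 8.73 in *WT* and 1.47, 1.41 and 1.34 in KO cells under 5-FU. The 4 groups were fully separated, and *IFITM1* fell after 5-FU in both genotypes, with −1.13 (SE 0.11, FDR 2.32e-07) in *WT* and −1.78 (SE 0.14, FDR 2.21e-08) in KO cells. The difference between the genotypes was −1.85 (SE 0.11, FDR 9.74e-10) under DMSO and −2.50 (SE 0.14, FDR 1.36e-09) under 5-FU, which is 3.605-fold and 5.64-fold lower in KO cells. The interaction, −0.65 (SE 0.18, FDR 0.0169), was under the minimum fold change without KO DMSO replicate 2, −0.58 (FDR 0.0434), or without *WT* 5-FU replicate 3, −0.51 (FDR 0.0421). It was also not called in DESeq2, −0.57 (FDR 0.0632). With the fold change inside the test (glmTreat) it was not called either, and only the interactions of *IFIT1*, *SAMD9* and *IFI6* stayed called. Of the windows of *IFITM1*, 41.2% are shared with an overlapping gene.

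*IFITM3* (chromosome 11, 319676 to 329475, minus strand), the most abundant member per kb, was at 314, 355 and 346 CPM in *WT* and 187, 187 and 199 in KO cells under DMSO, and at 504 and 419.5 in *WT* and 203, 214 and 187 in KO cells under 5-FU. KO libraries stayed between 187 and 214 CPM, below all *WT* libraries, with a difference of −0.83 (SE 0.07, FDR 1.22e-07) under DMSO and −1.20 (SE 0.08, FDR 5.24e-09) under 5-FU. *IFITM2* was at 102, 108 and 113 CPM in *WT* and 63.7, 67.1 and 70.7 in KO cells under DMSO, and at 112 and 89.9 in *WT* and 55.8, 58.98 and 57.5 in KO cells under 5-FU. It was lower in KO cells, with a difference of −0.68 (SE 0.07, FDR 1.19e-06) under DMSO and −0.82 (SE 0.08, FDR 4.64e-07) under 5-FU, and was called after 5-FU in neither genotype. *IFITM2* and *IFITM3* are close paralogs. None of the 150-base windows of either is shared exactly with another gene (0%), but shorter or inexact matches were not searched.

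**Figure D2:**
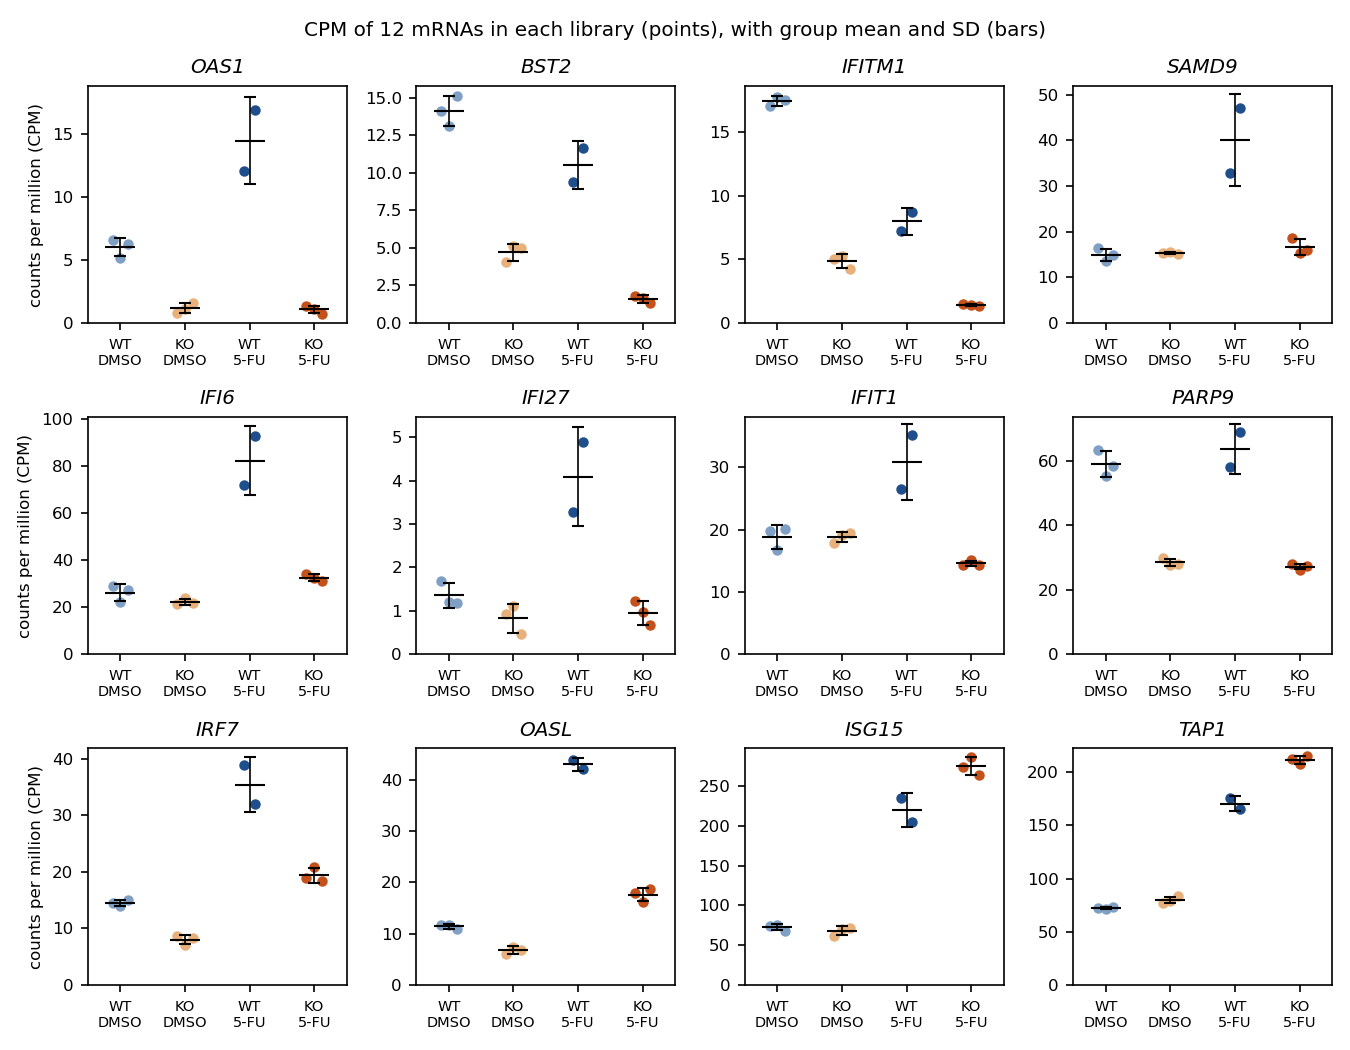
CPM (linear axes from 0) of 12 members in each library, as points in 4 groups (n = 3 libraries, 2 for *WT* 5-FU), with the mean as a line and the SD as bars. *OAS1* lay at 12.04 and 16.95 CPM in the 2 *WT* 5-FU libraries and at or below 1.35 CPM in the 3 KO 5-FU libraries, whereas *ISG15* and *TAP1* were high in both 5-FU groups.

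The OAS enzymes sense double-stranded RNA and make oligoadenylates, a signal that leads to the cutting of viral and cellular RNA. *OAS1* (chromosome 12, 112905856 to 112933219, plus strand) had the largest difference of the 42 members and was at 6.601, 5.202 and 6.25 CPM in *WT* and 0.793, 1.15 and 1.61 in KO cells under DMSO, and at 12.04 and 16.95 in *WT* and 1.35, 1.15 and 0.751 in KO cells under 5-FU. All KO libraries lay below all *WT* libraries, and 5-FU raised *OAS1* in *WT* cells, by 1.26 (SE 0.18, FDR 1.95e-05), while the KO groups overlapped, −0.15 (SE 0.29, FDR 0.672). The difference was −2.32 (SE 0.22, FDR 4.56e-07) under DMSO and −3.72 (SE 0.23, FDR 2.76e-09) under 5-FU, which is 4.98-fold and 13.2-fold lower in KO cells. The interaction was −1.41 (SE 0.35, FDR 0.0073), and −1.09 (FDR 0.0504) without KO DMSO replicate 3, which just missed the threshold.

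*OASL*, which has lost the enzyme activity and enhances RIG-I signalling, was at 11.8, 11.7 and 10.9 CPM in *WT* and 6.01, 7.49 and 6.87 in KO cells under DMSO, and at 43.9 and 42.1 in *WT* and 18.02, 16.2 and 18.7 in KO cells under 5-FU. It rose in both genotypes, by 1.91 (SE 0.09, FDR 2.37e-11) in *WT* and 1.37 (SE 0.09, FDR 2.09e-09) in KO cells, with no overlap between any groups. *OASL* was lower in KO cells, with a difference of −0.75 (SE 0.09, FDR 8.15e-06) under DMSO and −1.29 (SE 0.09, FDR 6.77e-09) under 5-FU, and its interaction, −0.54 (SE 0.13, FDR 0.00609), missed the minimum fold change, but passed it without KO DMSO replicate 1, −0.61 (FDR 0.00338). *OAS3*, a neighbor of *OAS1*, was at 119, 118 and 118 CPM in *WT* and 76.9, 81.7 and 76.7 in KO cells under DMSO, and at 128 and 141 in *WT* and 129, 135 and 128 in KO cells under 5-FU. KO cells lay below *WT* cells under DMSO and overlapped with them under 5-FU. The difference was −0.60 (SE 0.05, FDR 8.48e-08) under DMSO and −0.04 (SE 0.05, FDR 0.568) under 5-FU, and *OAS3* rose in KO cells by 0.74 (SE 0.05, FDR 2.53e-09). The DMSO difference was just under the minimum fold change without KO DMSO replicate 1, −0.58 (FDR 1.71e-06), or replicate 3, −0.58 (FDR 2.33e-06). The interaction of *OAS3*, 0.56 (SE 0.07, FDR 5.81e-05), was the reverse of that of *OAS1* in sign. It passed the minimum fold change with TMM factors, 0.62 (FDR 1.49e-05), in DESeq2, 0.64 (FDR 2.91e-13), and without KO DMSO replicate 2 or *WT* 5-FU replicate 3, 0.59 (FDR 0.000134) and 0.63 (FDR 3.71e-06). *OAS2* was at 3, 5 and 6 counts in *WT* and 2, 2 and 0 in KO cells under DMSO, and at 9 and 8 in *WT* and 3, 4 and 5 in KO cells under 5-FU, too few to test.

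*BST2* and *SAMD9* separated the genotypes in different ways. *BST2* (chromosome 19, 17402939 to 17405630, minus strand) encodes tetherin, which holds budding viruses at the cell surface, and was at 14.1, 13.1 and 15.1 CPM in *WT* and 4.05, 5.11 and 4.97 in KO cells under DMSO, and at 9.37 and 11.6 in *WT* and 1.82, 1.63 and 1.34 in KO cells under 5-FU. No 2 groups overlapped, and *BST2* was lowest in KO cells under 5-FU. The difference between the genotypes was −1.58 (SE 0.12, FDR 3.39e-08) under DMSO and −2.71 (SE 0.16, FDR 1.43e-09) under 5-FU, and the interaction −1.12 (SE 0.20, FDR 0.00088). It fell after 5-FU in KO cells, with −1.56 (SE 0.16, FDR 3.97e-07), and the response in *WT* cells was −0.43 (SE 0.12, FDR 0.00644), which passed the minimum fold change without *WT* 5-FU replicate 3, −0.59 (FDR 0.00206). *SAMD9* (chromosome 7, 93099513 to 93118023, minus strand), which restricts poxviruses, was at 16.3, 13.6 and 14.9 CPM in *WT* and 15.4, 15.5 and 15.2 in KO cells under DMSO, and at 32.9 and 47.2 in *WT* and 18.6, 15.3 and 15.9 in KO cells under 5-FU. Untreated cells of both genotypes and KO cells under 5-FU lay between 13.6 and 18.6 CPM, and only the *WT* libraries under 5-FU were higher. *SAMD9* rose in *WT* cells by 1.41 (SE 0.12, FDR 6.53e-08), its response in KO cells was 0.12 (SE 0.12, FDR 0.43), and the interaction was −1.30 (SE 0.17, FDR 6.35e-05).

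The neighbor *SAMD9L* was at 3, 1 and 7 counts in *WT* and 2, 0 and 1 in KO cells under DMSO, and at 21 and 19 in *WT* and 1, 1 and 2 in KO cells under 5-FU. The 40 counts in 2 *WT* libraries under 5-FU stood against 4 in 3 KO libraries. *XAF1*, which promotes apoptosis, was at 9, 0 and 0 counts in *WT* and 0, 1 and 0 in KO cells under DMSO, and at 7 and 22 in *WT* and 1, 3 and 0 in KO cells under 5-FU, with its highest count in *WT* 5-FU replicate 3. *SAMD9L* and *XAF1* reached the minimum count only through *WT* cells under 5-FU, so that no ratio between the genotypes is given. *XAF1* is among the 22 members called lower above, and was not called in DESeq2 or without KO 5-FU replicate 1 or 3. Of the windows of *XAF1*, 73.1% are shared with an antisense gene.

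*ISG20*, an exonuclease that degrades viral RNA, was the only member called higher in KO cells. It was at 2.20, 2.998 and 3.33 CPM in *WT* and 5.26, 5.702 and 5.52 in KO cells under DMSO, and at 6.99 and 7.19 in *WT* and 7.64, 7.73 and 7.595 in KO cells under 5-FU. The *WT* DMSO libraries were the lowest of all 11. *ISG20* was higher in KO cells under DMSO by 0.94 (SE 0.14, FDR 3.42e-05) and differed by 0.11 (SE 0.13, FDR 0.509) under 5-FU. It rose in *WT* cells by 1.31 (SE 0.14, FDR 7.64e-07), its response in KO cells was 0.48 (SE 0.12, FDR 0.00321), and the interaction was −0.83 (SE 0.19, FDR 0.00445). *MX1*, a GTPase that traps viral nucleocapsids, was expressed at 0.709 to 2.397 CPM. Its difference under 5-FU, −0.78 (SE 0.31, FDR 0.0498), barely passed. It did not pass when any of 7 of the 11 libraries was left out, with values between −0.42 (FDR 0.378) without *WT* 5-FU replicate 3 and −0.90 (FDR 0.0543) without KO 5-FU replicate 1. The other 5 were *WT* DMSO replicates 1 and 3, KO DMSO replicates 1 and 2 and KO 5-FU replicate 3. DESeq2 gave −0.74 (FDR 0.0756) and TMM factors −0.74 (FDR 0.0606). *TRIM21*, an antibody receptor of the cytosol, was called in no comparison, at 13.9 to 21.6 CPM.

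The 4 tested IFI genes were all lower in KO cells under 5-FU, beside 10.6% of all genes tested. *IFI6* (chromosome 1, 27666064 to 27672212, minus strand), a small mitochondrial and membrane protein that protects cells from apoptosis, was at 29.1, 22 and 27.3 CPM in *WT* and 21.2, 23.7 and 21.8 in KO cells under DMSO, and at 71.8 and 92.6 in *WT* and 33.9, 32.2 and 31.2 in KO cells under 5-FU. Both *WT* libraries under 5-FU lay above all others, and the genotypes overlapped under DMSO, −0.24 (SE 0.11, FDR 0.077). *IFI6* rose in *WT* cells by 1.65 (SE 0.11, FDR 2.19e-09) and its response in KO cells was 0.55 (SE 0.11, FDR 0.000302), with an interaction of −1.10 (SE 0.15, FDR 8.99e-05). The response in KO cells passed the minimum fold change without KO DMSO replicate 2, 0.60 (FDR 0.000675). The difference under 5-FU was −1.34 (SE 0.11, FDR 6.92e-08). Of its windows, 10.1% are shared with an overlapping gene.

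*IFI27*, of the same protein family, was at 1.695, 1.19 and 1.19 CPM in *WT* and 0.918, 1.11 and 0.4603 in KO cells under DMSO, and at 3.29 and 4.898 in *WT* and 1.23, 0.966 and 0.668 in KO cells under 5-FU. It rose in *WT* cells by 1.58 (SE 0.30, FDR 0.00027), its KO groups overlapped, and its difference was −2.08 (SE 0.32, FDR 5.08e-05) under 5-FU. The difference under DMSO was −0.74 (SE 0.33, FDR 0.0775), and −1.01 (FDR 0.0408) without KO DMSO replicate 2. The interaction, −1.34 (SE 0.46, FDR 0.0431), lost the call when any of 7 libraries was left out, with values between −1.35 (FDR 0.0683) without KO 5-FU replicate 2 and −1.04 (FDR 0.134) without *WT* 5-FU replicate 3. The other 5 were *WT* DMSO replicates 2 and 3, KO DMSO replicates 1 and 2 and KO 5-FU replicate 3. With TMM factors it was −1.28 (FDR 0.0518). *IFI35*, a partner of other interferon-induced proteins, was at 16.4, 17.2 and 16.4 CPM in *WT* and 10.7, 12.8 and 12.99 in KO cells under DMSO, and at 20.1 and 21.3 in *WT* and 8.36, 8.88 and 8.18 in KO cells under 5-FU. Each KO library was below each *WT* library of the same treatment, with −0.45 (SE 0.08, FDR 0.000392) under DMSO and −1.29 (SE 0.09, FDR 1.91e-08) under 5-FU, with an interaction of −0.84 (SE 0.13, FDR 0.000181). After 5-FU the KO libraries lay below those under DMSO, −0.52 (SE 0.09, FDR 9.98e-05), which passed the minimum fold change without KO DMSO replicate 1, −0.61 (FDR 3.42e-05).

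*IFI44*, an antiproliferative ISG, was low, at 1.66, 1.32 and 1.996 CPM in *WT* and 1.04, 0.638 and 0.888 in KO cells under DMSO, and at 1.35 and 2.71 in *WT* and 0.713, 0.631 and 0.292 in KO cells under 5-FU. The genotypes did not overlap under either treatment, with a difference of −1.86 (SE 0.38, FDR 0.000755) under 5-FU and −0.96 (SE 0.34, FDR 0.0284) under DMSO. Under DMSO it did not pass without *WT* DMSO replicate 1 or 3, −0.97 (FDR 0.059) and −0.80 (FDR 0.112), or without KO DMSO replicate 2 or 3, −0.80 (FDR 0.103) and −0.99 (FDR 0.0643). *IFI44L* had 0 to 10 counts per library.

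**Figure D3:**
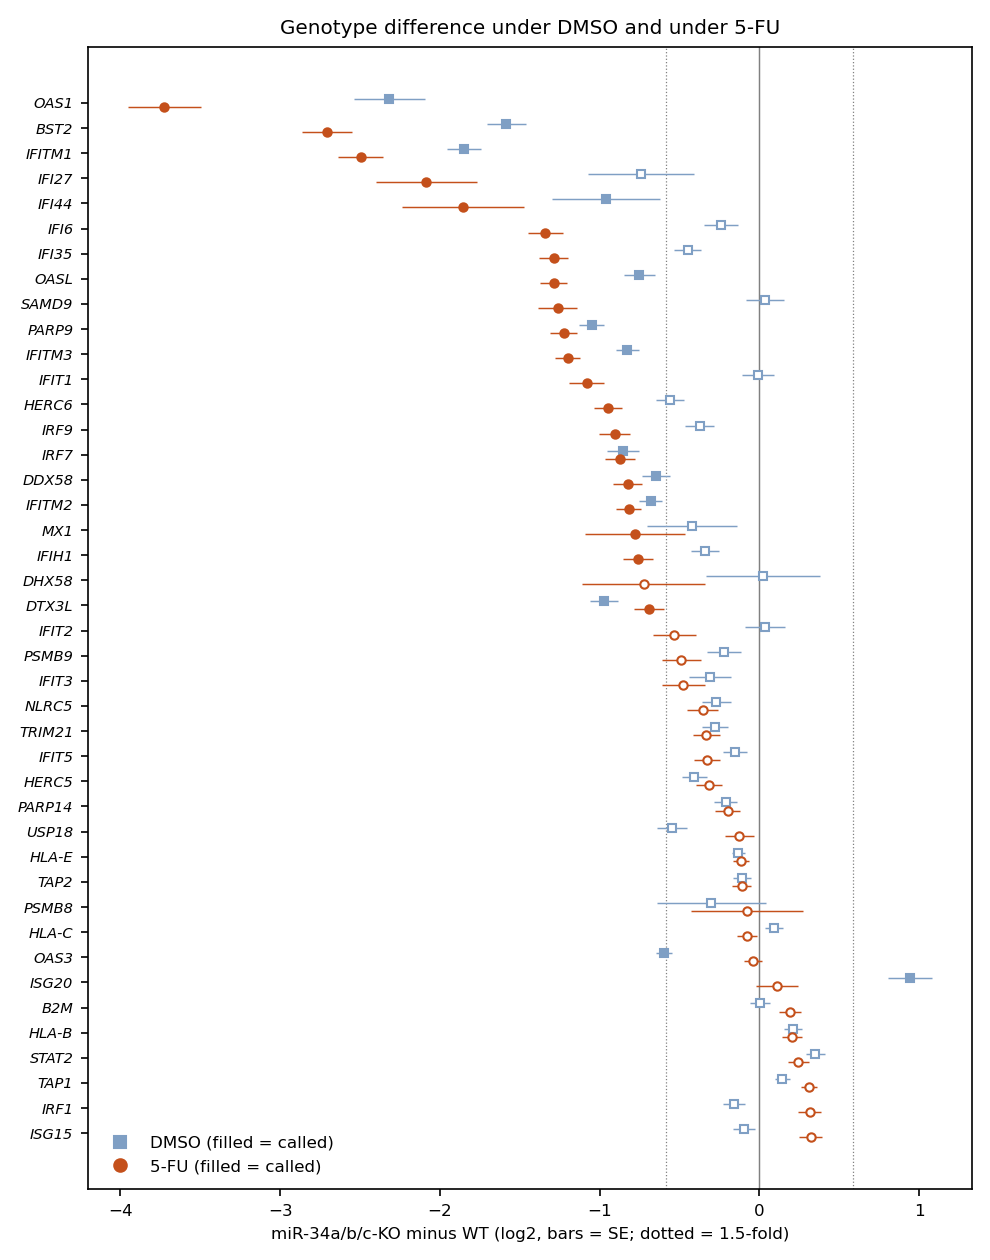
Difference between the genotypes (log2 fold change, KO minus *WT*, bars are the SE) under DMSO (squares) and 5-FU (circles) for 42 members, without the low-count *SAMD9L* and *XAF1*, and with filled symbols where the difference was called. *OAS1* is farthest to the left at −2.32 under DMSO and −3.72 under 5-FU, and the symbols of class I genes lie within the dotted lines of a fold change of 1.5.

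In the ISG15 system 3 of 4 members rose after 5-FU in each genotype, beside 18.5% of all genes in *WT* and 13.3% in KO cells. ISG15 is a small protein that is attached to other proteins like ubiquitin. *ISG15* (chromosome 1, 1001138 to 1014540, plus strand) was at 74.2, 76.0 and 68.1 CPM in *WT* and 61.6, 71.02 and 71.5 in KO cells under DMSO, and at 235 and 205 in *WT* and 274, 287 and 264 in KO cells under 5-FU. It rose in both genotypes, by 1.60 (SE 0.07, FDR 2.34e-11) in *WT* and 2.01 (SE 0.07, FDR 6.05e-13) in KO cells, and the KO libraries under 5-FU lay above the *WT* libraries, by 0.32 (SE 0.07, FDR 0.00164). The interaction was 0.42 (SE 0.10, FDR 0.00638), opposite in sign to those called and under the minimum fold change. *USP18*, which removes ISG15 and silences the interferon receptor, was at 10.5, 10.6 and 10.7 CPM in *WT* and 7.598, 6.68 and 7.46 in KO cells under DMSO, and at 16.8 and 17.02 in *WT* and 16.9, 15.5 and 14.1 in KO cells under 5-FU. It rose by 0.67 (SE 0.09, FDR 9.57e-06) in *WT* and 1.10 (SE 0.09, FDR 2.55e-08) in KO cells, and the genotypes overlapped under 5-FU. Of its windows, 27.6% are shared with other genes.

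*HERC5*, the ligase that attaches ISG15, was at 27.4, 28.4 and 26.97 CPM in *WT* and 20.04, 19.8 and 22.4 in KO cells under DMSO, and at 37.5 and 44.2 in *WT* and 33.2, 32.3 and 32.8 in KO cells under 5-FU. It rose in KO cells by 0.66 (SE 0.08, FDR 1.53e-06). Its response in *WT* cells, 0.56 (SE 0.08, FDR 1.49e-05), was just under the minimum fold change and passed it without *WT* DMSO replicate 2, 0.59 (FDR 5.9e-05), or *WT* 5-FU replicate 2, 0.68 (FDR 3.07e-06). *HERC6*, its neighbor, was at 16.01, 16.05 and 15.7 CPM in *WT* and 12.02, 10.3 and 10.2 in KO cells under DMSO, and at 24.9 and 29.1 in *WT* and 14.5, 13.9 and 13.6 in KO cells under 5-FU. It rose in *WT* cells by 0.76 (SE 0.09, FDR 1.75e-06) and was lower in KO cells under 5-FU, with a difference of −0.95 (SE 0.09, FDR 3.92e-07). The difference of *HERC6* under DMSO was −0.56 (SE 0.09, FDR 7.86e-05), and −0.64 (FDR 7.23e-05) without KO DMSO replicate 1.

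*PARP9* and *DTX3L*, whose products form a complex that modifies histones, were lower in KO cells under both treatments and did not respond to 5-FU past the threshold. They lie head to head on chromosome 3 and overlap at their starts, on opposite strands (*PARP9* 122527924 to 122564577, minus strand, *DTX3L* 122564338 to 122575203, plus strand). *PARP9* was at 63.3, 55.3 and 58.2 CPM in *WT* and 29.8, 27.6 and 28.02 in KO cells under DMSO, and at 58.1 and 69.1 in *WT* and 28.0, 26.2 and 27.3 in KO cells under 5-FU. The difference was −1.05 (SE 0.08, FDR 1.48e-08) under DMSO and −1.23 (SE 0.08, FDR 7.18e-09) under 5-FU, with the genotypes fully separated. *DTX3L* was at 65.4, 54.97 and 66.1 CPM in *WT* and 29.8, 33.4 and 32.1 in KO cells under DMSO, and at 57.9 and 70.5 in *WT* and 42.3, 37.4 and 39.4 in KO cells under 5-FU. It was lower in KO cells, with −0.97 (SE 0.09, FDR 1.84e-07) under DMSO and −0.69 (SE 0.09, FDR 1.64e-05) under 5-FU, the latter under the minimum fold change without *WT* 5-FU replicate 3, −0.55 (FDR 0.000228). *PARP14*, which lies beside them, was called in no comparison, with a difference of −0.21 (SE 0.07, FDR 0.0244) under DMSO and −0.20 (SE 0.08, FDR 0.0426) under 5-FU.

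None of the 9 class I antigen presentation genes was called between KO and *WT* cells by edgeR, as counted above. Of the 9 differences 5 were below 0 under DMSO and 6 under 5-FU. After 5-FU *TAP1* was the only one called. *TAP1* (chromosome 6, 32845209 to 32853816, minus strand), a subunit of the peptide transporter, was at 72.2, 71.8 and 73.2 CPM in *WT* and 77.3, 79.2 and 83.3 in KO cells under DMSO, and at 175 and 166 in *WT* and 212, 208 and 215 in KO cells under 5-FU. It rose in both genotypes, by 1.24 (SE 0.05, FDR 5.46e-12) in *WT* and 1.41 (SE 0.05, FDR 4.38e-13) in KO cells, and the groups of the 2 treatments were far apart. Under 5-FU the KO libraries were higher by 0.31 (SE 0.05, FDR 8.7e-05), a fold change of 1.24. Of its windows, 17.0% are shared with an antisense gene.

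*TAP2*, the other subunit, was at 71.9 to 90.7 CPM, with a response of 0.14 in *WT* and 0.14 in KO cells. The annotation shares 34.1% of its windows, and 8.87% of those of *HLA-B*, with overlapping genes. The heavy chains *HLA-B* (159 to 273 CPM), *HLA-C* (404 to 531 CPM) and *HLA-E* (135 to 194 CPM) differed between the genotypes by between −0.13 and 0.21 under both treatments. *HLA-B* lay higher after 5-FU in both genotypes, 0.47 (SE 0.06, FDR 7.86e-06) and 0.47 (SE 0.06, FDR 2.82e-06), and *HLA-E* lower, −0.37 (SE 0.05, FDR 4.61e-06) and −0.36 (SE 0.04, FDR 2.06e-06), all under the minimum fold change. *B2M*, the light chain of these molecules, was at 423, 447 and 418 CPM in *WT* and 421, 423 and 448 in KO cells under DMSO, and at 328 and 397 in *WT* and 423, 412 and 408 in KO cells under 5-FU. Its difference was 0.00 (SE 0.06, FDR 0.962) under DMSO and 0.19 (SE 0.07, FDR 0.029) under 5-FU. The immunoproteasome subunit *PSMB9* lay at 6.61 to 12.4 CPM, with a difference of −0.49 (SE 0.12, FDR 0.00306) under 5-FU. *PSMB8* had at most 25 counts in a library and reached the minimum count only in *WT* cells. *NLRC5*, the transactivator of class I genes, was at 7.62 to 13.5 CPM, with −0.36 (SE 0.10, FDR 0.00626) under 5-FU.

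**Figure D4:**
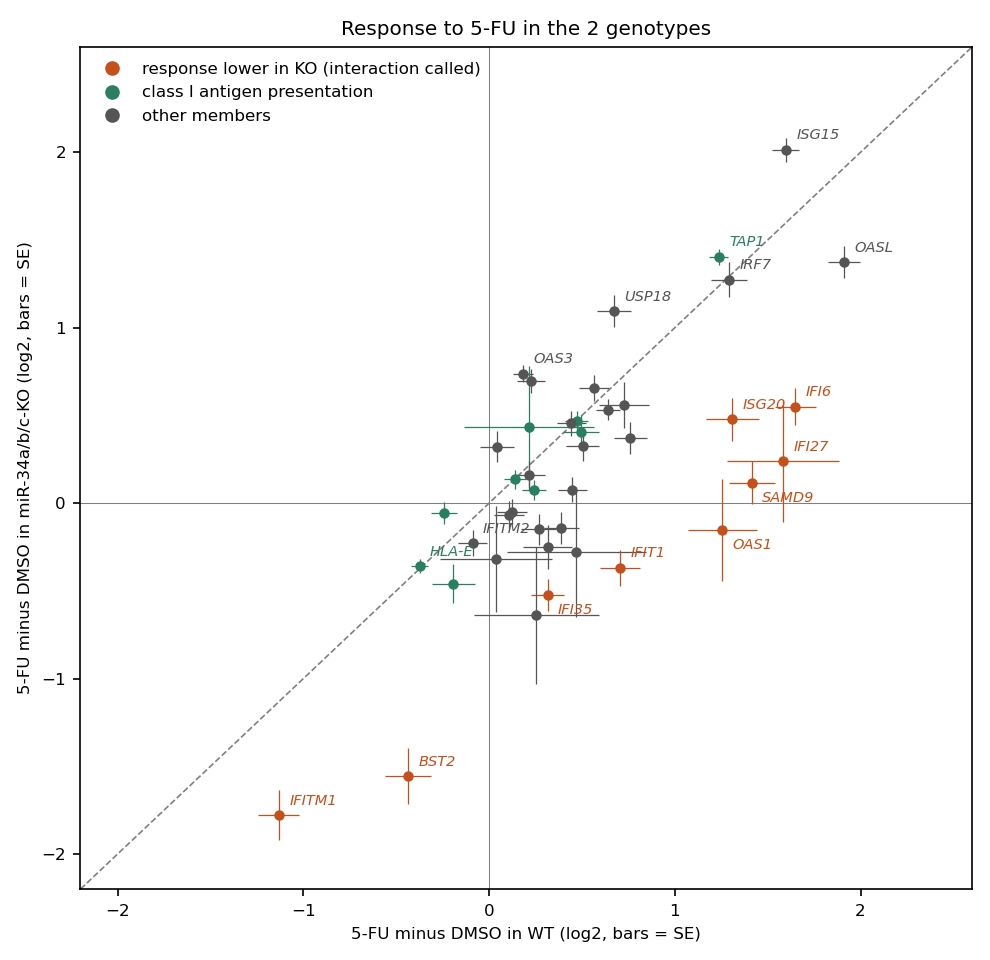
Response to 5-FU (log2 fold change, 5-FU minus DMSO) in *WT* cells (x axis) and KO cells (y axis) for 42 members, with the SE as bars, without *SAMD9L* and *XAF1*. The 9 members with a called interaction lie below the diagonal, 7 of them to the right of 0, while *ISG15* (1.60 and 2.01) and *TAP1* (1.24 and 1.41) lie above it.

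Set side by side, the responses of the 9 members with a called interaction took 3 forms. After 5-FU 5 members rose in *WT* cells, *IFI6* by 1.65, *IFI27* by 1.58, *SAMD9* by 1.41, *OAS1* by 1.26 and *ISG20* by 1.31, with responses in KO cells between −0.15 and 0.55, none called. *IFIT1* rose by 0.70 and *IFI35* differed by 0.32 in *WT* cells, with values below 0 in KO cells, −0.37 and −0.52. *IFITM1* and *BST2* were below 0 in both, −1.13 and −0.43 in *WT* against −1.78 and −1.56 in KO cells.

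The inputs of the pathway were compared in the same way. Of 7 interferon genes 1 was tested, *IFNE*, an epithelial type I interferon, with 1, 1 and 2 counts in *WT* and 9, 9 and 15 in KO cells under DMSO, and at 12 and 6 in *WT* and 47, 50 and 47 in KO cells under 5-FU. It reached the minimum only in KO cells under 5-FU, where it was highest, so that its tests are not given. *IFNB1* and *IFNG* had at most 1 count in a library and *IFNL1* at most 11. The 9 receptors and kinases (from *IFNAR1* to *TYK2*) were called by edgeR in 0 of the 5 comparisons, with medians between −0.01 and 0.26. Of these 9, between 3 and 7 had an unadjusted p under 0.05 in a comparison, and DESeq2 called 1 under 5-FU between the genotypes and 1 interaction.

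Of 14 further genes of nucleic acid sensing 12 were tested. After 5-FU 3 rose in *WT* cells, beside 18.5% of all genes, and 4 in KO cells, beside 13.3%. *TLR3*, an endosomal sensor of double-stranded RNA, rose in both genotypes, by 2.80 (SE 0.10, FDR 6.81e-13) in *WT* and 2.52 (SE 0.09, FDR 8.55e-13) in KO cells, and its interaction was −0.28 (SE 0.13, FDR 0.141). *CGAS*, the DNA sensor, had at most 2 counts in a library. Of the 4 tested inhibitors of the pathway, *SOCS1* rose by 1.10 in *WT* and 0.78 in KO cells and *PTPN2* fell in *WT* cells, −0.63 (SE 0.09, FDR 1.72e-05).

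Of 37 other ISGs 29 were tested. These include *RSAD2* and *CMPK2*, which reached the minimum count only in *WT* cells, where they were highest. Counts and medians without them were not made. Under 5-FU 14 were lower and 2 higher in KO cells (median −0.50), beside 10.6% lower and 7.58% higher among all genes. Under DMSO 5 were lower and 2 higher (median −0.32), beside 4.97% and 9.1%. After 5-FU 8 rose and 1 fell in *WT* cells, where 18.5% of all genes rose and 9.38% fell, and 10 rose and 1 fell in KO cells, where 13.3% rose and 12% fell. *EPSTI1* had the largest called interaction, −2.09 (SE 0.45, FDR 0.00288), with 0.857 and 0.599 CPM (*WT* and KO means) under DMSO and 3.59 and 0.578 CPM under 5-FU. *TRIM22* was the other with a lower response in KO cells, −0.84 (SE 0.27, FDR 0.0307), and rose in both genotypes, by 3.05 in *WT* and 2.21 in KO cells. *RSAD2*, the antiviral enzyme viperin, was at 9, 13 and 11 counts in *WT* and 3, 3 and 4 in KO cells under DMSO, and at 29 and 31 in *WT* and 8, 6 and 0 in KO cells under 5-FU. It reached the minimum count only in *WT* cells under 5-FU, so that its test is not given. *CMPK2*, its neighbor in the genome, was at 112, 87 and 88 counts in *WT* and 10, 16 and 15 in KO cells under DMSO, and at 82 and 79 in *WT* and 16, 16 and 17 in KO cells under 5-FU, and reached the minimum only in *WT* cells. *CD274*, the checkpoint ligand PD-L1, had a higher response in KO cells. It was at 1.66, 1.63 and 1.76 CPM in *WT* and 2.296, 2.38 and 2.27 in KO cells under DMSO, and at 3.39 and 3.596 in *WT* and 9.19, 9.55 and 9.72 in KO cells under 5-FU, with an interaction of 0.99 (SE 0.19, FDR 0.00123).

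Of 21 other genes of antigen presentation 19 were tested, and 3 were higher in KO cells under DMSO, beside 9.1% of all genes, and 2 under 5-FU, beside 7.58%, with 0 lower (4.97% and 10.6% of all genes). DESeq2 called 3 and 4 of them between the genotypes, and edgeR gave 3 and 7 lower ones an unadjusted p under 0.05. *CALR*, a chaperone of class I loading, was higher by 0.99 (SE 0.04, FDR 5.79e-11) under DMSO and 0.88 (SE 0.05, FDR 1.57e-09) under 5-FU, and *PDIA3*, its partner, by 0.88 (SE 0.04, FDR 1.49e-10) and 1.02 (SE 0.05, FDR 2.04e-10). The interaction was called for 0 genes of this list by edgeR and by DESeq2, and 8 had an unadjusted p under 0.05.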

How the data were processed

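The authors made the count files with CLC Genomics Workbench from paired-end, random-primed libraries mapped to GRCh38 (hg38) with ENSEMBL genes. The deposited counts per gene were not normalized, and the strand setting and annotation release are not given in the sources used here. For 11 of 12 libraries, edgeR 4.0.16 (R 4.3.3) was run with upper-quartile factors (0.955 to 1.05), genes that reached 20 counts in any library and 1 mean per group. The quasi-likelihood test gave 4 differences and their interaction, called at an FDR under 0.05 (Benjamini-Hochberg) and a fold change over 1.5. The method was tested on simulated counts. CPM are counts per 1000000 after these factors. Alternatives used TMM, DESeq2 1.42.0, 1 RUVg factor, other filters, glmTreat, a replicate block and each library left out.

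The members and lists were chosen with earlier results of these data known. Members among the 12 largest changes of a comparison are given per library, and of other pathway genes the 3 largest called per comparison and a few chosen after their values were seen. Overlap between genes was measured as shared 150-base windows of transcripts (GENCODE release 44). Some genes of the pathway lists are counted but not reported here by name.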

Additional observations from a re-analysis of the deposited data

Results flagged for a closer look

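The response to 5-FU differed between *WT* and KO cells in 9 of the 44 members, by the interaction test in edgeR, each with a lower response in KO cells, beside 6.66% lower and 3.42% higher among all genes tested. The differences (KO minus *WT*, log2) were −1.41 (SE 0.35, FDR 0.0073) for *OAS1*, −1.34 (SE 0.46, FDR 0.0431) for *IFI27*, −1.30 (SE 0.17, FDR 6.35e-05) for *SAMD9*, −1.12 (SE 0.20, FDR 0.00088) for *BST2* and −1.10 (SE 0.15, FDR 8.99e-05) for *IFI6*. They were −1.07 (SE 0.15, FDR 8.65e-05) for *IFIT1*, −0.84 (SE 0.13, FDR 0.000181) for *IFI35*, −0.83 (SE 0.19, FDR 0.00445) for *ISG20* and −0.65 (SE 0.18, FDR 0.0169) for *IFITM1*. For *ISG20* KO cells were higher under DMSO, and under 5-FU the means were 7.09 ± 0.142 CPM (SD, n = 2) in *WT* and 7.65 ± 0.0658 CPM (SD, n = 3) in KO cells. For *IFIT1*, *SAMD9* and *IFI6* the genotypes overlapped under DMSO. Only these genes kept the called interaction with the fold change inside the test (glmTreat). Groups of 3 or fewer libraries were not searched for single libraries that stand apart.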

How the results depend on the processing

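Counts of members are given here as higher/lower, in the order KO minus *WT* under DMSO (1/12), 5-FU in *WT* cells (15/1), 5-FU in KO cells (8/2), KO minus *WT* under 5-FU (0/22) and interaction (0/9). With TMM factors the counts were 1/12, 15/1, 10/2, 0/21 and 1/8, and with DESeq2 1/12, 15/1, 10/2, 0/20 and 1/8. Without a filter on low counts (46 members tested) they were 1/13, 16/1, 9/2, 0/22 and 1/9, and with at least 20 counts in every library (36 tested) 1/9, 12/1, 8/2, 0/16 and 0/8. Without a minimum fold change they were 4/22, 29/4, 19/7, 6/30 and 4/15, and with the fold change inside the test (glmTreat) 1/7, 10/1, 6/2, 0/18 and 0/3. Scaling by TMM or DESeq2 moved the median of all genes by less than 0.1 (log2).

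With 1 RUVg factor in the model the counts were 0/8, 0/0, 0/0, 0/20 and 1/8. The factor separated the treatments (98.2% of its variance), so that it took up the 5-FU response, and 7 called responses changed sign: *STAT2* −0.30 (FDR 0.903), *IRF7* −1.77 (FDR 0.531), *IFITM1* 1.20 (FDR 0.78) and *ISG15* −0.54 (FDR 0.822) in *WT* cells, and *IRF1* −0.041 (FDR 0.99), *IRF7* −1.44 (FDR 0.545) and *IFITM1* 0.29 (FDR 0.949) in KO cells. With the identical library kept as labelled, which puts a copy of a DMSO library among the 5-FU libraries, the counts were 1/10, 0/0, 8/2, 0/19 and 1/2.

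When each library was left out in turn, the counts higher and lower ranged from 1 to 1 and 10 to 12 for KO minus *WT* under DMSO, 13 to 17 and 1 to 2 for 5-FU in *WT* cells, 8 to 9 and 2 to 3 for 5-FU in KO cells, 0 to 0 and 18 to 23 for KO minus *WT* under 5-FU, and 0 to 1 and 7 to 11 for the interaction. *WT* 5-FU replicate 3 weighed most: without it the counts were 1/12, 13/2, 8/2, 0/18 and 1/7. Leaving out 1 of the 2 *WT* 5-FU libraries assumes that the other varies like the libraries of the other groups.

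With the replicate number as a replicate block the counts were 1/12, 16/1, 8/2, 0/22 and 0/9. With the numbers of the file headers, an alternative chosen after seeing the data, they were 1/13, 15/1, 8/2, 0/20 and 0/8. Libraries with the same labelled number did not deviate together (correlations of 15 pairs −0.146 to 0.132, median 0.027). Of the 11, 3 correlated best with a library of their own number, so that no pairing by it was seen. The numbers of the file headers were not examined in this way. Deviations within groups of 2 or 3 libraries cannot exclude a pairing. Low counts limit *OAS2*, *IFI44L*, *SAMD9L*, *XAF1*, *PSMB8* and *MX1*, and with 2 *WT* libraries under 5-FU a change present in only one of them weighs heavily.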
